A study of Homo sapiens with 12 samples.

Results

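All-trans retinoic acid (ATRA) given alone was compared with its vehicle, DMSO, by the histone mark H3K4me2 in U-937 cells, an established human line of monocytic type, called acute myeloid leukaemia cells in the labels. The members are genomic regions: overlapping peaks of the ATRA list and the DMSO list were merged, a region with an ATRA peak only was called gained, one with a DMSO peak only was called lost, and one with both was called shared. This gave 69895 regions, compared with 84588 when the lists of all treatments in the series were merged. ATRA was used at 0.1 µM for 24 h and DMSO for the same time. Each group had 2 H3K4me2 libraries and 1 input library, so the comparison uses 6 of the 12 libraries of the series. The other groups received Corin, an inhibitor of the CoREST complex, at 0.1 µM, or ATRA with Corin at 0.1 µM each. All groups are 1 cell line, and the H3K4me2 libraries of a treatment share 1 peak list, called with the input as background. No value per replicate is in a list, so replicates cannot be compared, no p-value is given, and each difference is a difference between these lists. Intervals are 95% Wilson intervals, which cover the counting error alone. In cells measured in bulk, a mark in fewer cells and less mark per cell cannot be told apart.

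H3K4me2 marks nucleosomes at active and poised promoters and at enhancers. It is written by methyltransferases of the KMT2 family and can be removed by the demethylase LSD1 (KDM1A), a subunit of the CoREST complex. ATRA binds the retinoic acid receptors, which pair with retinoid X receptors on DNA at direct repeats of a short half-site. Without ligand these receptors hold corepressors, and with ligand they bind coactivators. In myeloid leukaemia cells ATRA is known for driving differentiation.

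The sequences below show what a receptor-type repeat looks like in gained and lost regions. They are the 4 gained and the 2 lost regions with the highest −log10 q that hold a direct repeat of the half-site spaced by 5 bases (DR5) within 150 bp of the summit. Each is read from hg38 in the orientation of the repeat, with the half-sites in capitals. Gained 1 lies on chromosome 11 from 3817515 to 3817621 (plus strand) in an intron of PGAP2, and gained 2 on chromosome 11 from 72133197 to 72133303 (minus strand) in an intron of FOLR3. Gained 3 lies on chromosome 5 from 157505779 to 157505885 (plus strand) in an intron of ADAM19, and gained 4 on chromosome 1 from 228452573 to 228452679 (minus strand) in an intron of H2AC25. Lost 1 lies on chromosome 20 from 24831143 to 24831249 (plus strand) and lost 2 on chromosome 11 from 79604292 to 79604398 (plus strand), both outside genes.
gained 1: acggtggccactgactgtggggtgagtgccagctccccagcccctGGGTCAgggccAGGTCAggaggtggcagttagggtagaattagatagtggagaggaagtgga
gained 2: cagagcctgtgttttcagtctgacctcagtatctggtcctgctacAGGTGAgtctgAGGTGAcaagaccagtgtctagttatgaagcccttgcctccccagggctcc
gained 3: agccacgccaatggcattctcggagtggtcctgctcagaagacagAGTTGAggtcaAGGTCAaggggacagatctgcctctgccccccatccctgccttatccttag
gained 4: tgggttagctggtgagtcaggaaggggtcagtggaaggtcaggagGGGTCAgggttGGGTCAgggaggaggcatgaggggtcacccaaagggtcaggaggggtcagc
lost 1: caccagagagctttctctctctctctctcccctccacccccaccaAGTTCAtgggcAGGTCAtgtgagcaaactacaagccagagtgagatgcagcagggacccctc
lost 2: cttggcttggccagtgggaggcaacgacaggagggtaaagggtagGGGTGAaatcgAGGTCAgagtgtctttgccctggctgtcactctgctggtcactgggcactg
In the ATRA list the −log10 q over gained 1 to 4 was 23.5, 23.1, 20.8 and 18.4. In the DMSO list it was 9.81 over lost 1 and 9.05 over lost 2. The second half-site reads AGGTCA in gained 1, gained 3 and both lost regions. All 6 regions were also in the list of ATRA with Corin, whereas gained 3 and gained 4 had no peak in the Corin list.

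More regions were gained than lost between these lists, and both kinds were weakly enriched. Of the 69895 regions, 13459 were gained (19.3%) and 6451 were lost (9.23%), which is 2.09 gained per lost region, and 49985 were shared. Gained regions had a median width of 330 bp and lost regions of 277 bp, whereas shared regions had 1195 bp under ATRA peaks. Gained regions held 6.41% of the bases under ATRA peaks, and lost regions held 2.86% of the bases under DMSO peaks. The fold enrichment over input and the −log10 q are the authors' values and are read within 1 list only. In the ATRA list the median −log10 q was 4.84 for gained regions and 35.5 for shared regions, and the median fold was 4.12 and 11.7. In the DMSO list the median −log10 q was 2.96 for lost regions and 19.8 for shared regions, and the median fold was 3.65 and 8.66. The number of H3K4me2 fragments at a summit could be recovered from the fold and −log10 p. At ATRA peaks its median was 20 in gained and 67 in shared regions, and at DMSO peaks it was 18 in lost and 50 in shared regions. Among gained regions 44.3% (43.4 to 45.1%) had a −log10 q of 5 or more in the ATRA list. Among lost regions 21.1% (20.1 to 22.1%) reached 5 in the DMSO list. These shares are not like for like, because the recovered scaling of fragments was 0.689 in the ATRA list and 0.610 in the DMSO list. For example, a gained region at RXRA had 18 fragments and a −log10 q of 4.84. A lost region at RARA had 19 fragments and 4.03. Among the gained regions, 23 exceeded the median shared region of the ATRA list, and among the lost regions 8 exceeded that of the DMSO list.

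**Figure D1:**
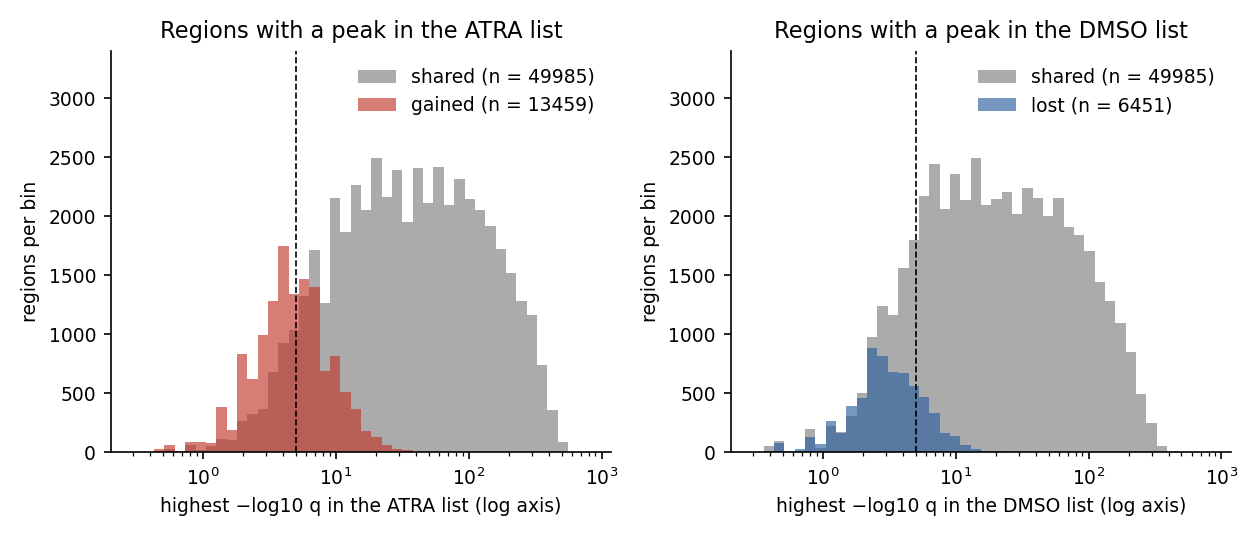
Regions by their highest −log10 q (log axis) in the ATRA list (left) and in the DMSO list (right), with the number of regions per bin on the vertical axis and the dashed line at 5. Gained regions (median 4.84) and lost regions (median 2.96) sit at the low end, and most shared regions lie to their right.

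The lists differed in enrichment as well as in membership. The ATRA list held 66385 peaks over 83.7 Mb and the DMSO list 65172 peaks over 73.4 Mb. The median summit held 47 fragments in the ATRA list and 39 in the DMSO list, while the lowest background under an H3K4me2 summit was 2.96 and 2.91 fragments. The lists had been filtered before deposit: 12.9% of the ATRA peak numbers and 14.4% of the DMSO peak numbers were absent, with 16 and 18 absent among the first 30000, so the filter acted mostly on weak peaks. The part of the higher ATRA summits and of this filter in the counts of gained and lost regions was not tested. With at least 20 fragments required at the summits of both lists, 10491 regions were gained and 3520 lost. When −log10 q had to reach 5 on the side with the peak, a threshold not like for like between the lists, 5960 regions were gained and 1360 lost. When both lists were limited to the same number of peaks, 12671 regions were gained and 6794 lost.

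Gained and lost regions lay mostly away from start sites. A start site of a protein-coding or lncRNA gene was within 1 kb of 5.99% of the gained regions (5.60 to 6.40%), 7.38% of the lost regions (6.77 to 8.04%) and 34.1% of the shared regions (33.7 to 34.6%). The median distance to the nearest start site was 14506 bp for gained, 12670 bp for lost and 6265 bp for shared regions. Gained and lost regions were in introns in 57.5% and 57.4% of cases, compared with 34.7% of the shared regions. Exons away from start sites held 7.53%, 7.89% and 8.36% of the gained, lost and shared regions. Regions outside genes made up 29.0%, 27.4% and 22.8%. These shares are of all regions, and start sites take up more of the shared class. Farther than 1 kb from start sites there were 12653 gained, 5975 lost and 32921 shared regions. Of these, 7742, 3700 and 17338 were in introns, 1014, 509 and 4177 in exons, and 3897, 1766 and 11406 outside genes. On that base the shares in exons and outside genes were highest for shared regions, and the share in introns was still lowest.

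The gap between gained and shared regions narrowed when regions of like enrichment were set side by side. In the ATRA list at a −log10 q of 5 to 10, the share within 1 kb of a start site was 6.57% for gained (5.87 to 7.34%) and 7.62% for shared regions (6.98 to 8.32%). At 10 to 20 the shares were 6.61% (5.42 to 8.04%) and 10.5% (9.88 to 11.2%). Below 3 they were 4.93% (4.23 to 5.74%) and 8.42% (6.99 to 10.1%). In the DMSO list at 3 to 5, lost regions had 7.59% (6.47 to 8.89%) and shared regions 7.51% (6.75 to 8.35%). At 5 to 10 they had 7.87% (6.47 to 9.55%) and 9.86% (9.23 to 10.5%), and at 10 to 20 they had 8.19% (4.94 to 13.3%) and 16.9% (16.2 to 17.7%). Shared regions at 20 and over, which are most of the shared class, had 48.2% in the ATRA list, and the 185 gained regions of that strength had 9.19% (5.82 to 14.2%). The gap to shared regions thus grew with enrichment above a −log10 q of 5 in both lists.

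**Figure D2:**
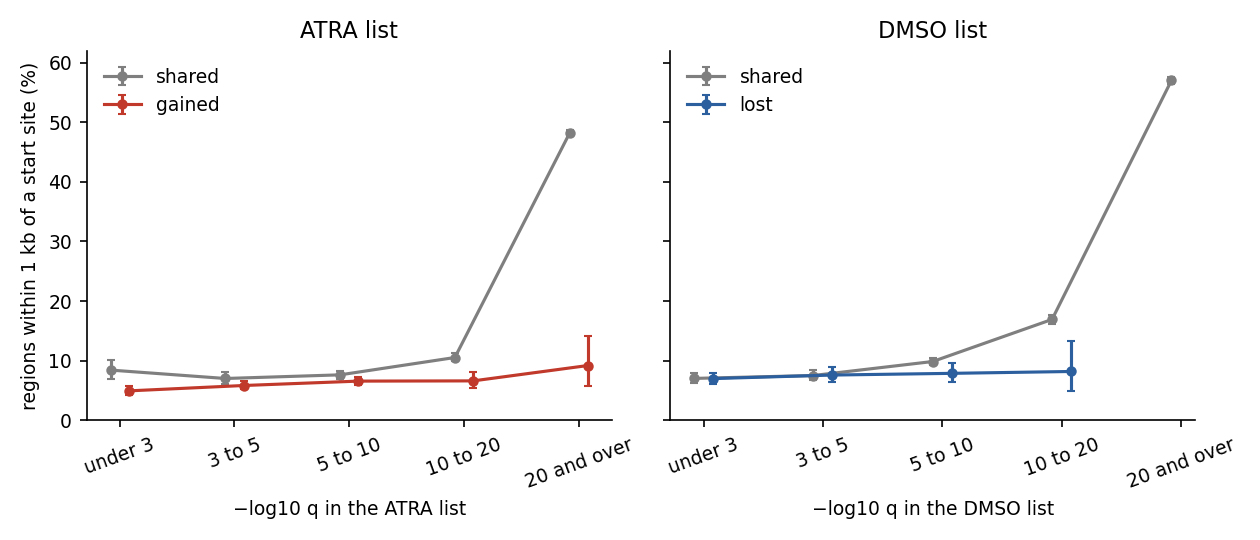
Share of regions within 1 kb of a start site, in percent with 95% Wilson intervals, by −log10 q in the ATRA list (left: gained and shared) and the DMSO list (right: lost and shared). The lines lie closer together at low −log10 q and part at 20 and over, where shared regions reach 48.2% in the ATRA list; no lost value is drawn at 20 and over.

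Many gained and lost regions lay beside a peak of the other list. A DMSO peak ended within 1 kb of 33.9% of the gained regions (33.1 to 34.7%), and an ATRA peak within 1 kb of 44.3% of the lost regions (43.1 to 45.5%). At the closest, 3397 gained regions lay within 500 bp of a DMSO peak and 2261 lost regions within 500 bp of an ATRA peak. No DMSO peak lay within 10 kb of 3968 gained regions (29.5%), and no ATRA peak within 10 kb of 1587 lost regions (24.6%). Each of the 23 chromosomes in the lists had more gained than lost regions. The ratio ran from 1.46 on chromosome 19 to 2.66 on chromosome 4.

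A second ATRA contrast in the series uses neither of these lists: ATRA with Corin against Corin alone. As a share of each class, the combination list but not the Corin list held 29.3% of gained, 13.3% of lost and 3.68% of shared regions. For regions in neither the ATRA nor the DMSO list it was 57.5%. Among regions held by the combination or Corin list but not both, gained regions lay more often on the combination side than other regions. Lost regions did so less often. Of the 4355 such gained regions, 90.5% were in the combination list (89.6 to 91.4%). The same share was 81.6% for shared regions (79.9 to 83.1%), 77.4% for regions in neither the ATRA nor the DMSO list (76.8 to 78.0%), and 52.4% for lost regions (50.0 to 54.8%). Over all regions of the series it was 78.5%. With all strengths together, the intervals of the gained, shared and lost classes do not overlap. With enrichment the share rose among gained regions, from 88.3% at a −log10 q under 3 (86.2 to 90.1%) to 97.3% at 10 to 20 (95.1 to 98.5%). It rose more steeply among shared regions, from 65.6% (59.5 to 71.2%) to 88.6% (85.7 to 91.0%), so the rise is not particular to gained regions. At 20 and over the intervals overlapped, with 97.8% for gained (88.4 to 99.6%) and 94.3% for shared regions (89.1 to 97.1%). Among lost regions the share fell from 56.9% (53.5 to 60.3%) to 34.8% at 10 to 20 (22.7 to 49.2%, 46 regions). Counting both lists, 78.7% of the gained regions were in the combination list and 52.5% in the Corin list. Of the lost regions, 59.0% were in the combination list and 57.8% in the Corin list, and 1864 (28.9%) were in neither.

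**Figure D3:**
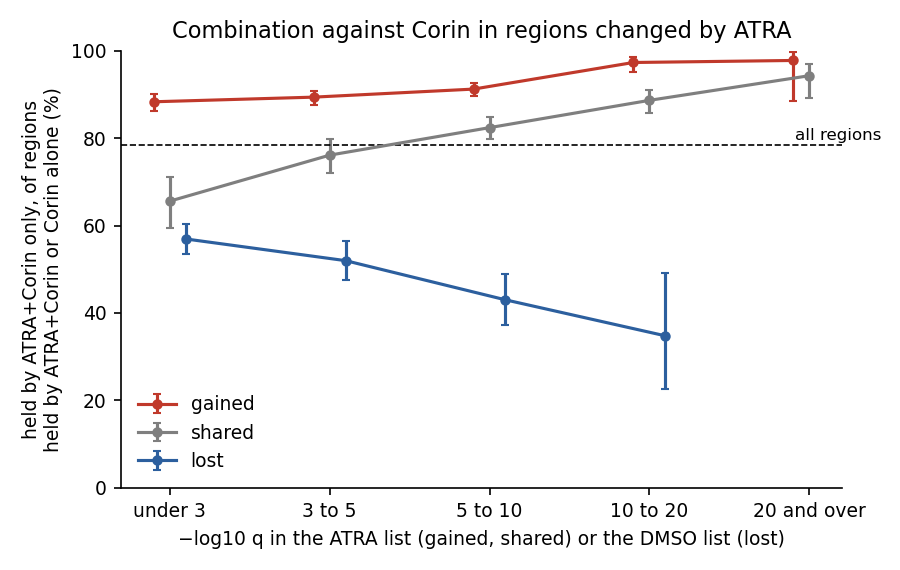
Of regions held by the list of ATRA with Corin or by the Corin list but not by both, the share held by the combination, in percent with 95% Wilson intervals, by −log10 q in the ATRA list (gained, shared) or the DMSO list (lost). Gained regions lie at 88.3% and above, shared regions rise from 65.6% to 94.3%, lost regions fall to 34.8%, and the dashed line marks all regions at 78.5%.

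Shared regions were on the whole wider in the ATRA list. Their summits were also higher there, with a median of 67 fragments compared with 50 in the DMSO list. The part of the higher summits in the widths was not tested. The median width of a shared region was 1045 bp under DMSO peaks and 1195 bp under ATRA peaks. The median log2 ratio of the widths was 0.11, with quartiles of -0.04 and 0.38, and 68.7% of the shared regions were wider (68.2 to 69.1%). Regions farther than 1 kb from a start site had a median log2 ratio of 0.17 and those within 1 kb of one had 0.06. In bases, these groups gained a median of 103 bp and 77.5 bp, and 69.4% and 67.2% of them were wider. Width at least 2 times as large was found in 3518 shared regions (7.04%), and width at most 0.5 times as large in 693 (1.39%). Narrow regions had the larger ratios: in the narrowest of 4 equal groups by mean width the median was 0.22, and in the widest 0.06. In the 8539 shared regions over exactly 1 protein-coding start site, the outer upstream edge of the peaks lay a median of 22 bp farther out with ATRA and the downstream edge 33 bp farther. Of these regions, 105 (1.23%) had an upstream edge more than 500 bp farther out, and 420 (4.92%) a downstream edge. Edges that receded by more than 500 bp were fewer, 34 upstream (0.398%) and 153 downstream (1.79%). Most shared regions held 1 peak of each list (80.7%), while 13.8% held several DMSO peaks under 1 ATRA peak and 4.18% the converse.

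The coverage of start sites changed little. Of 19959 protein-coding start sites, 8659 (43.4%) were under a peak of both lists. A further 936 (4.69%) were under an ATRA peak only and 777 (3.89%) under a DMSO peak only. A start site under a peak of 1 list only can still lie in a shared region, beside a peak of the other list. Between these lists, the canonical start site of TGM2 was under an ATRA peak only, and that of RARA under a DMSO peak only. The TGM2 start site lay in a shared region that also held 3 DMSO peaks, whereas that of RARA lay in a lost region. The combination list covered both of these start sites and the Corin list neither.

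Width changes were partly seen again in the combination against Corin. Among regions present in all lists whose width was at least 2 times as large with ATRA, 1968 were wider and 590 narrower in the combination than in Corin, which is 76.9% wider of those that differed (75.3 to 78.5%). Among regions with width at most 0.5 times as large, 209 were wider and 252 narrower, or 45.3% (40.8 to 49.9%). Among regions present in all lists whose log2 ratio was between -0.25 and 0, 54.9% of those that differed were wider (53.8 to 56.0%). A separate count took the 58407 regions merged from the combination and Corin lists and present in both. Of these, with equal widths included, 63.6% were wider in the combination (63.2 to 64.0%). Its regions and denominator differ from those of the classes, so it is no baseline for them. Across the classes, the share of those that differed fell at each step from the most widened to the most narrowed class.

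The largest increase was at HIC1, a transcriptional repressor and known retinoid target (region covering its start site and exons, chromosome 17 from 2054250 to 2061993). Peaks covered 3263 bp of it with DMSO, 7744 bp with ATRA, 3066 bp with Corin and 7669 bp with both drugs, so both lists with ATRA were wide and both without it narrow. At TGM2, the transglutaminase that is a classic ATRA-induced gene, the region on chromosome 20 from 38163558 to 38170221 covers the start site. It had 2606 bp with DMSO, 6532 bp with ATRA, 3143 bp with Corin and 6658 bp with both. At B4GALT5, a galactosyltransferase of glycosphingolipid synthesis, the region on chromosome 20 from 49706576 to 49715293 had 4703 bp with DMSO, 8718 bp with ATRA, 7340 bp with Corin and 8457 bp with both. Corin alone lay above DMSO in each of the 6 regions with the largest increase except HIC1. FGR, a Src-family kinase of myeloid cells, had 4654 bp with DMSO and 8573 bp with ATRA and, with Corin, 6785 bp. This region, on chromosome 1 from 27621107 to 27629679, covers an annotated start site of the gene and lies 5506 bp from the canonical one. CLEC2A, a C-type lectin (chromosome 12 from 9930595 to 9945309), went from 8 DMSO peaks over 10249 bp to 1 ATRA peak over 14155 bp, with 12570 bp in the Corin list. VSIR, which encodes the checkpoint receptor VISTA (chromosome 10 from 71764759 to 71777440), had 8803 bp with DMSO, 12682 bp with ATRA and 12428 bp with Corin.

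The largest decrease was at TENT5C, a poly(A) polymerase (region covering its start site, chromosome 1 from 117605968 to 117611875). Its 5828 bp under 1 DMSO peak became 3346 bp under 3 ATRA peaks, and the Corin and combination lists had 4707 and 3323 bp. ZNF275, a zinc finger gene (chromosome X from 153333284 to 153339413), had 6130 bp with DMSO and 3839 bp with ATRA. A region in the actin crosslinker gene ACTN4 (chromosome 19 from 38663194 to 38667315) had 4122 and 1924 bp, and it covers an annotated start site that lies 15545 bp from the canonical one. A pair of regions upstream of UBAC1 had 3504 and 1423 bp (chromosome 9 from 135976050 to 135979553) and 6110 and 4207 bp (from 135991978 to 135998087). LAT, a signalling adaptor best known in T cells (chromosome 16 from 28983589 to 28988324), had 4736 bp with DMSO and 2868 bp with ATRA, but 4505 bp with Corin and 4612 bp with both. Of these 6 regions only TENT5C was as narrow with both drugs as with ATRA while Corin lay well above.

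**Figure D4:**
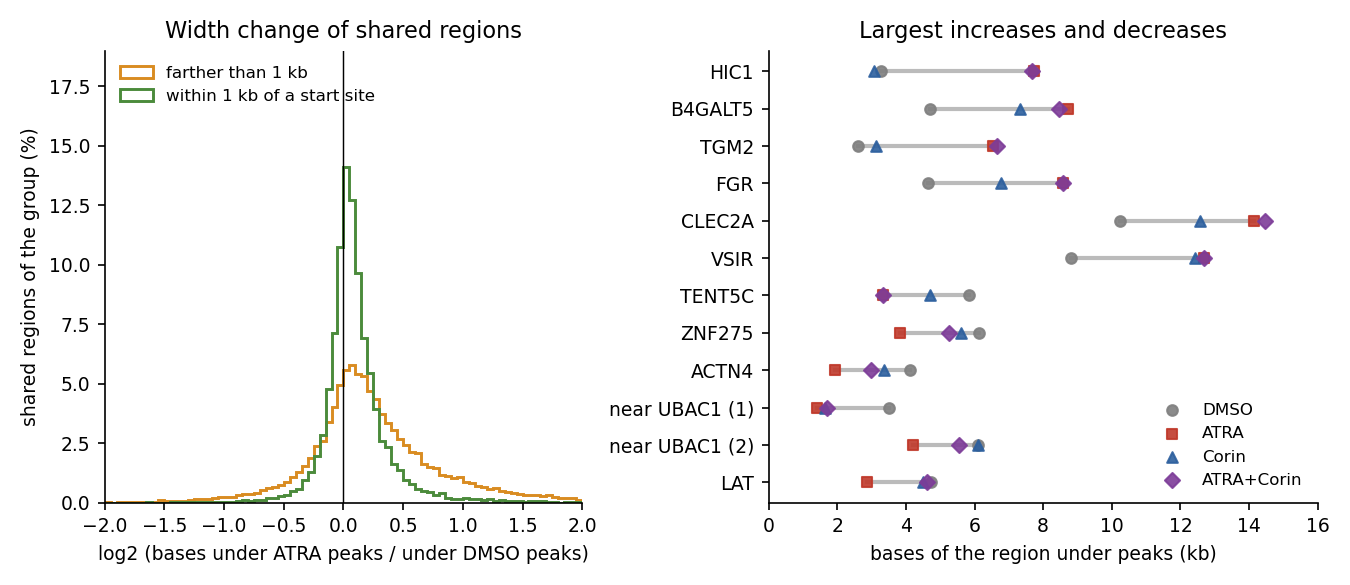
Left: log2 ratio of bases under ATRA peaks to bases under DMSO peaks in shared regions near and far from start sites, as percent of each group per bin of 0.05; both are shifted to the right of 0, the distant regions more (median 0.17 against 0.06). Right: bases under peaks, in kb, of each treatment in the 6 regions with the largest increase (HIC1 to VSIR) and the 6 with the largest decrease (TENT5C to LAT).

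Regions were then counted within 50 kb of protein-coding start sites. Over all 19959 genes, 46.1% had a gained region in this window and 30.6% a lost one. More gained than lost regions were found for 35.0% of the genes and more lost than gained for 15.7%, and the median net change was 0. Genes with many regions in the DMSO list have more chances for both. Among genes with 5 to 9 DMSO regions, 44.6% had a net gain and 22.9% a net loss. Neighbouring genes can share regions, so genes of 1 locus are not separate evidence. In the totals of a gene list each region is counted once.

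The receptors for retinoids did not gain regions as a group. Of 6 genes, 2 had more gained than lost regions and 2 had more lost than gained, with 6 gained and 7 lost regions in all. RARA, the main retinoic acid receptor of myeloid cells (chromosome 17 from 40309180 to 40357643, plus strand), had 16 DMSO regions and 13 ATRA regions. Of its 3 lost regions, 1 covered the canonical start site and the others lay 5441 and 5733 bp downstream, and all were weak, with −log10 q values of 4.03, 4.03 and 2.96 among DMSO peaks. All 3 were in the combination list, and those downstream were in the Corin list too. RXRA, its usual partner, gained 1 region and lost 2. RARG gained 2 and lost 0, with 1 gained region at a −log10 q of 8.35. RARB gained 1 region with a −log10 q of 0.84, and RXRB and RXRG each gained 1 and lost 1.

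Among 15 genes of retinoid metabolism and transport, 4 had a net gain, 1 a net loss and 10 no net change. The share with a net gain, 26.7%, was below the 35.0% over all genes. DHRS3, a retinaldehyde reductase that dampens retinoic acid synthesis (chromosome 1 from 12567910 to 12618210, minus strand), went from 7 to 10 regions. DHRS9, a retinol dehydrogenase, gained 4 regions and lost 2, and 3 of the gained ones had a −log10 q of at least 5. For CRABP2, which carries retinoic acid to the nucleus, the 2 gained regions lay 47675 and 48588 bp from its start site, in other genes. The canonical start site of CRABP2 was under a DMSO peak only, but inside a shared region, as 0 regions were lost within 50 kb. ALDH1A2, a retinaldehyde dehydrogenase, gained 1 region. STRA6, the retinol transporter, gained 1 region 653 bp from its start site (−log10 q of 3.06) and lost 1 upstream (5.39). RDH11 lost 1 region. CYP26A1, the retinoic acid hydroxylase, kept 3 regions in both lists with 0 gained and 0 lost.

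Known retinoid target genes had the most gained regions per DMSO region of the gene lists counted. Of 14 genes, 11 had a net gain and 0 a net loss, with 47 gained and 7 lost regions. That is 48.0 gained regions per 100 DMSO regions in the window, compared with 20.7 over all genes, and 7.14 lost per 100 compared with 10.02. The members were chosen with earlier results of these data known, and the list was written as targets of this drug, so its direction is not independent evidence. TGM2 (chromosome 20 from 38127385 to 38166578, minus strand) had 5 DMSO regions and 12 ATRA regions. Its 7 gained regions ran from 2131 bp inside the gene to 45899 bp upstream, and the strongest lay 12716 bp upstream with a −log10 q of 27.4 and 54 fragments. Of these 7 regions, 4 were also in the combination list and 2 in the Corin list. CD38, an ectoenzyme that consumes NAD, had 6 and 13 regions. Of its 7 gained regions, 3 lay within 10 kb of the start site, the strongest 3741 bp inside the gene with a −log10 q of 15.3, and 7 were in the combination list but 2 in the Corin list.

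BTG2, an antiproliferative gene, had 9 DMSO and 15 ATRA regions, with a highest gained −log10 q of 6.12. TNFSF10, which encodes the death ligand TRAIL, had 6 and 11 regions. The strongest of its gained regions lay 23913 bp upstream with a −log10 q of 18.5. HIC1 gained 6 regions and lost 3, all inside SMG6, which overlaps it, and 1 of the gained ones reached a −log10 q of 5. CEBPE, a transcription factor of late granulocyte maturation, and PLAAT4, a phospholipase-related tumour suppressor, each gained 3 and lost 0. RARRES2, the gene for chemerin, gained 3 and lost 1. ASB2, a ubiquitin ligase subunit, gained 2 and lost 1, with 1 gained region at a −log10 q of 16.3. RARRES1 gained 1 weak region (0.49), PRAM1 gained 1 and lost 1, and RIGI and NRIP1 had none of either kind.

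**Figure D5:**
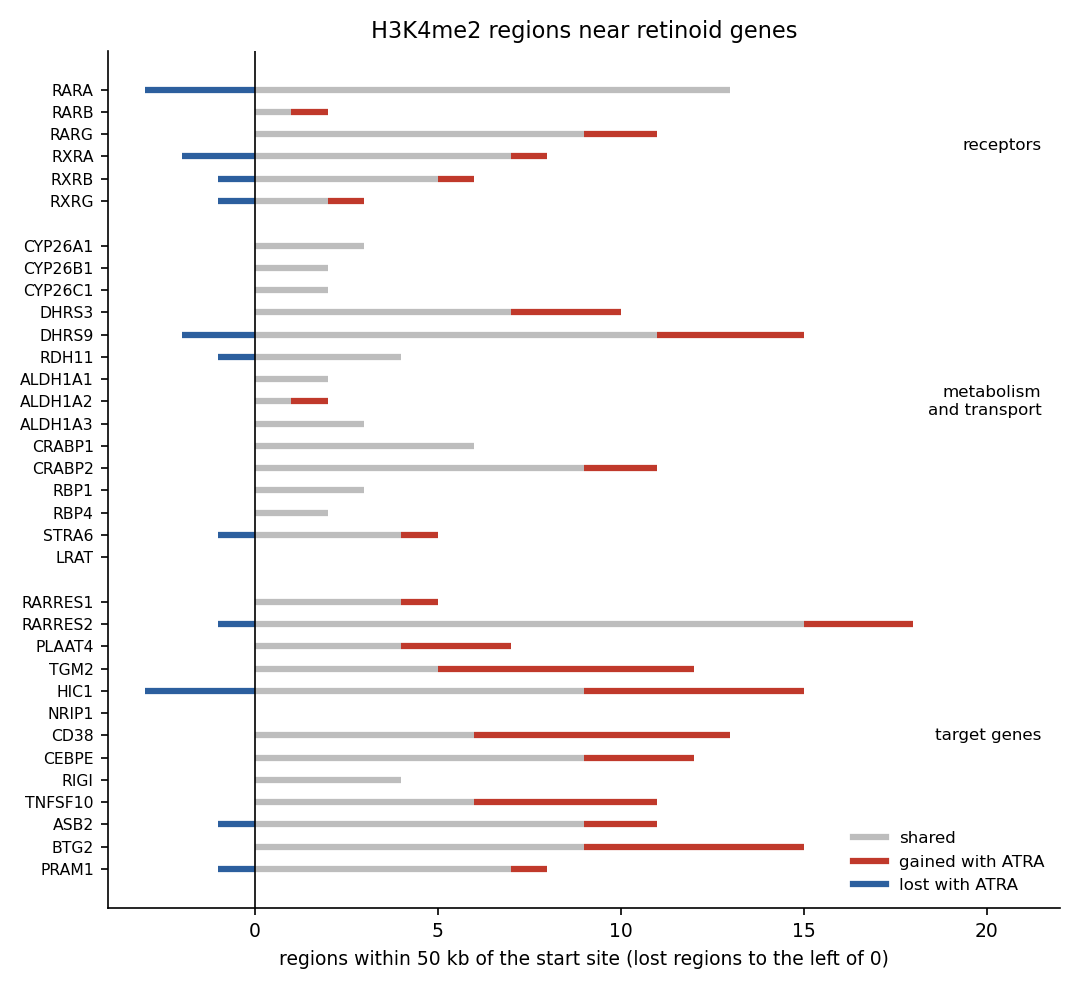
Regions within 50 kb of the start sites of genes in the retinoid lists: shared (grey) and gained (red) regions to the right of 0, lost regions (blue) to the left. TGM2 and CD38 show 7 gained and 0 lost regions each, whereas RARA shows 0 gained and 3 lost.

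Genes of myeloid differentiation also gained regions. Of 30 genes, 22 had a net gain, 1 a net loss and 7 no net change, with 65 gained and 10 lost regions. This is 26.9 gained and 4.13 lost per 100 DMSO regions, compared with 20.7 and 10.02 over all genes. A net gain was found for 73.3% of the list and 35.0% of all genes. CYBB, the catalytic subunit of the phagocyte NADPH oxidase (chromosome X), went from 15 to 21 regions, with 3 of its 6 gained regions within 10 kb of the start site. FPR1, a receptor for formylated bacterial peptides, went from 11 to 16 regions, and ITGB2, the common chain of the leukocyte integrins, from 13 to 17 with 5 gained and 1 lost. FCGR1A, a high-affinity Fc receptor, went from 8 to 12 regions. The single gene with a net loss was TLR2 (8 to 7 regions), named here after its value was seen. ITGAM, the integrin chain CD11b, had 5 regions in each list, and CD86, a costimulatory ligand, had 6 in each. For both, 0 regions were gained or lost.

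Among 29 transcription factors of the myeloid lineage, 20 had a net gain and 3 a net loss, with 53 gained and 20 lost regions. That is 25.2 gained and 9.52 lost per 100 DMSO regions, compared with 20.7 and 10.02 over all genes. The share with a net gain was 69.0%, and 35.0% over all genes. GFI1, a repressor that recruits LSD1, went from 5 to 10 regions with 0 lost, and its strongest gained region had a −log10 q of 15.1. IRF1, an interferon response factor, went from 7 to 11. IRF8, a factor of monocyte and dendritic cell fate, moved the other way, from 15 to 10 regions with 5 lost and 0 gained. The highest −log10 q among its lost regions was 3.73, so 0 of them reached 5. CEBPA, a factor of granulocyte fate named after its values were seen, also had a net loss, from 15 to 14 regions. It lost 3 regions, with a −log10 q of at most 5.59, and gained 2, of which 1 reached 27.8.

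Leukaemia stem and progenitor genes did not lose regions as a group. Of 19 genes, 12 had a net gain and 1 a net loss, with 29 gained and 4 lost regions, or 33.3 gained per 100 DMSO regions. Over all genes 35.0% had a net gain, with 20.7 gained per 100 DMSO regions. The genes of this list had a median of 4 DMSO regions. All genes with 0 to 4 DMSO regions had 25.8 gained per 100, and those with 5 to 9 had 19.2. MEIS1, a HOX cofactor, went from 4 to 9 regions, PBX3, another HOX cofactor, from 5 to 9, and BMI1, a Polycomb protein, gained 6 and lost 2. BCL2, an inhibitor of apoptosis, gained 3 and lost 0. Of 17 corepressor and coactivator genes, 9 had a net gain and 1 a net loss, with 29.2 gained per 100 DMSO regions. The coactivator NCOA3 went from 4 to 9 regions, 4 of the gained ones with a −log10 q of at least 5, and the corepressor NCOR1 from 3 to 8. RCOR1, a core CoREST subunit, gained 2 regions with 0 lost. Of 10 housekeeping genes, 5 had a net gain and 1 a net loss, with 11 gained and 4 lost regions, or 18.0 gained per 100 DMSO regions. B2M, the light chain of class I molecules, went from 10 to 13, HPRT1 from 2 to 4, TUBB from 9 to 11 and RPLP0 from 11 to 9.

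Markers of the monocytic lineage were marked at most start sites with both treatments. A DMSO peak covered the start sites of 8 of 11 monocytic markers and an ATRA peak also 8, and the uncovered ones were PTPRC, FCGR1A and MPO. Over all protein-coding genes 47.3% of start sites were covered with DMSO and 48.1% with ATRA. Among T cell markers 1 of 5 was covered in each list, among B cell markers 2 with DMSO and 1 with ATRA of 5, and 0 of 4 erythroid and 0 of 4 epithelial markers in either list. Near the monocytic markers 27 regions were gained and 3 lost, with CD4, FCGR1A and ITGB2 at a net 4 each and CD33 at 3. That is 30.3 gained and 3.37 lost per 100 DMSO regions, compared with 20.7 and 10.02 over all genes. The other lineages were not free of change. T cell markers gained 4 regions and lost 1, or 26.7 and 6.67 per 100 DMSO regions, with CD2 at a net 2 and CD3D and CD3G sharing 1 gained region. B cell markers gained 11 and lost 6, or 36.7 gained and 20 lost per 100 DMSO regions, with CD79A and CD79B at a net 2 each. EPB42 among erythroid markers had a net 2 and EPCAM among epithelial markers a net 1.

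Over all genes, the largest net gain was at B4GALT5 (chromosome 20 from 49632945 to 49713878, minus strand), which went from 7 to 19 regions with 0 lost. Of its 12 gained regions, 6 had a −log10 q of at least 5, and 11 were in the combination list compared with 7 in the Corin list. The next locus was on chromosome 19, where SIGLEC11, a sialic acid receptor of macrophages, ATF5 and NUP62 share 11 gained regions, and SIGLEC16 beside them had 9. SIGLEC11 and SIGLEC16 are near-identical copies in part, so the placement of reads between them is uncertain. CAP1, an actin regulator, gained 11 regions and its neighbour PPT1, a lysosomal thioesterase, gained 9. SRGN, the proteoglycan of secretory granules in blood cells, went from 19 to 29 regions, and ITGA5, the fibronectin receptor chain, from 11 to 20. CAPZB, an actin capping subunit, gained 8, UPB1 and OFD1 with TRAPPC2 each gained 9 and lost 1. For these 10 loci the gained regions were found in the combination list in 6 to 11 cases and in the Corin list in 2 to 8.

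The largest net loss was at BATF, an AP-1 family transcription factor (chromosome 14 from 75522455 to 75546993, plus strand), which went from 13 to 6 regions with 8 lost and 1 gained. Only 1 of the 8 lost regions had a −log10 q of at least 5, and 7 of them were still in the Corin list and 7 in the combination list. INPP5A, an inositol phosphatase (chromosome 10), went from 17 to 11 regions. Its 7 lost regions were in the Corin list in 3 cases and in the combination list in 0. MSGN1 went from 5 to 0 regions, 4 of the lost ones with a −log10 q of at least 5, and all 5 were in both the Corin and the combination lists. NPHP4 lost 6 and gained 1, UBAC2 and PPP6R3 lost 5 each, and DNAH8 and GLO1 share 5 lost regions. RBM3, an RNA-binding protein, lost 6 and gained 1, and TBC1D25 beside it lost 5. None of the lost regions of RBM3, TBC1D25 and IRF8 reached a −log10 q of 5.

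The strongest gained region lay at BCORL1, a corepressor gene, 184 bp from a start site (chromosome X from 129981026 to 129982426; −log10 q of 137). The next lay over the end of CEACAM21 (chromosome 19 from 41584566 to 41587073; 89.0), across the 5′ end of the lncRNA gene ERCC6L2-AS1 beside ERCC6L2 (chromosome 9 from 95874157 to 95875455; 69.2) and 28 bp upstream of SIGLEC11 (chromosome 19 from 49961200 to 49962213; 67.7). Regions in P3H1, MACO1, TMIE and HNRNPLL followed, at 61.1, 61.0, 52.0 and 49.5. All 8 were in the combination list and 5 were in the Corin list. Those at CEACAM21, P3H1 and TMIE were in the lists with ATRA and in neither list without it. At start sites of protein-coding genes, gained regions next in enrichment were at SIGLEC11 (a second region, 43.1), the protein-coding gene ENSG00000289724, which has no symbol in the annotation and overlaps SERPINB2 (39.4), ZNG1A (36.8), ANKRD36B (29.2), SIGLEC16 (25.5) and RACGAP1 (25.5). ZNG1A and ANKRD36B also belong to families with near-identical copies, so their placement is uncertain.

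Lost regions at the top were weaker. The strongest lay over exons of TPSAB1, a mast cell tryptase with near-identical neighbours (chromosome 16 from 1241113 to 1241349; −log10 q of 30.5 in the DMSO list). The region over the end of PTGER1, a prostaglandin receptor gene (chromosome 19 from 14472122 to 14472693; 22.1), had no peak in any other list. A region in a lncRNA gene upstream of GLI2 (21.9), others in TMEM204 (21.02), RNF130 (21.02) and SLC7A5 (20.9), 1 far from AJAP1 (20.9) and 1 in LINC02814 (20.1) followed. Of these 8, the combination list held 3 and the Corin list 6. At start sites, lost regions were seen at GGT5 (13.2), PTGER1 (12.97), DTX2 (12.2), IGLL1 (12.1), TOMM40 (10.6), TM4SF1 (10.2), SH3GLB2 (10.0), PIK3CG, the phosphoinositide kinase subunit of leukocytes (9.36), and PELP1 (9.22). Those at PTGER1 and PIK3CG were present with DMSO and Corin and absent from both lists with ATRA.

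Short motifs were counted on both strands in 300 bp windows around the summits, as letters only. Some motifs can overlap each other. The base composition of the windows differed between classes. Farther than 1 kb from start sites the median GC content was 46.7% in gained, 50.0% in lost and 50.3% in shared windows (ATRA summits). Its part in the motif ratios was not tested. A pair of GAAA words with 2 bases of any kind between them, letters of interferon response elements, was found in 6.20% of gained windows, 3.82% of shared windows (ATRA summits) and 4.32% of all windows of the ATRA list, a ratio of gained to shared of 1.62 (95% interval 1.50 to 1.76). Among lost windows it was found in 3.13%, compared with 3.74% of shared windows at DMSO summits, a ratio of 0.837 (0.725 to 0.965). Farther than 1 kb from start sites the ratios were 1.35 for gained (1.24 to 1.47) and 0.683 for lost (0.587 to 0.794), so the directions were opposite. TGACTCA, letters bound by AP-1, went the other way: the ratio was 0.956 for gained (0.888 to 1.03) and 1.38 for lost regions (1.26 to 1.51), and away from start sites 0.789 and 1.13. GAGGAAGT, letters bound by PU.1, was found in 4.44% of gained and 3.06% of shared windows, a ratio of 1.45 (1.32 to 1.59), and in 1.05 times the shared share in lost windows (0.908 to 1.21); the distant ratios were 1.19 and 0.860. TTGCNNAA, letters of C/EBP sites, had 1.30 in gained (1.24 to 1.35) and 1.14 in lost regions (1.07 to 1.21), but 1.12 (1.07 to 1.18) and 0.980 (0.917 to 1.05) farther than 1 kb from start sites. Among those distant windows at a −log10 q under 5, it was in 17.5% of gained and 18.0% of shared windows (ATRA list), so the higher share in gained regions was not seen at like enrichment. The paired GAAA words were in 5.59% of gained (5.07 to 6.14%) and 4.39% of shared windows (3.75 to 5.13%) there. GGGCGG, common in CpG-rich promoters, had 0.313 and 0.443, and farther than 1 kb from start sites 0.529 and 0.774. In distant windows under a −log10 q of 5 it was in 8.93% of lost (8.15 to 9.78%) and 7.004% of shared windows (6.44 to 7.61%, DMSO list), the converse direction.

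Receptor-type repeats were rare in every class. DR5 was found in 0.483% of gained windows, 0.330% of shared windows and 0.363% of all windows of the ATRA list, a ratio of 1.46 (1.10 to 1.95), and in 0.342% of RefSeq promoter windows of hg38. Lost windows had 0.465%, a ratio of 1.42 (0.961 to 2.09), and the intervals of the gained and lost ratios overlap. Farther than 1 kb from start sites the DR5 ratios were alike, 1.52 for gained (1.11 to 2.08) and 1.53 for lost regions (1.01 to 2.32). The repeat spaced by 2 bases (DR2) was found in 2.69% of gained windows, 1.57% of shared windows (ATRA summits) and 1.81% of all windows of the ATRA list. Lost windows had 2.08%, compared with 1.54% of shared windows at DMSO summits. The DR2 ratios were 1.71 for gained (1.51 to 1.93) and 1.35 for lost regions (1.13 to 1.62). Farther than 1 kb from start sites they were 1.45 (1.27 to 1.65) and 1.13 (0.936 to 1.36). A single form of the repeat made up 60.5% of the 370 DR2 matches in gained windows and 65.7% of the 134 in lost windows, so most DR2 matches in both classes were the same letters. The repeat spaced by 1 base (DR1) did not differ between classes beyond its intervals, with a ratio of 1.18 for gained (0.893 to 1.57) and 1.10 for lost regions (0.738 to 1.63).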

How the data were processed

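H3K4me2 ChIP-seq of U-937 cells was analysed from 4 deposited peak lists; the ATRA and DMSO lists are the comparison. Per the submitters' processing notes, Trimmomatic, Bowtie2, Picard and MACS2 were used with hg38; their versions and settings are not given in the sources used here. The deposited score of a peak is 10 times its −log10 p, cut to a whole number. The fold enrichment, a ratio over input at the summit, and the −log10 p and −log10 q are the authors' values for 1 list per treatment, which by the files' names holds reproducible peaks of the H3K4me2 libraries over input.

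Peaks that overlapped by at least 1 bp were merged. Start sites were those of the basic transcripts that GENCODE release 44 gives for 38726 genes, protein-coding or lncRNA, and gene windows from the canonical start sites of 19959 protein-coding genes. Fragments at a summit were solved from the deposited fold and −log10 p and were whole within 0.05 for 100% of the peaks with a −log10 p under 300 (the other 1786 ATRA and 172 DMSO peaks were set above all others). The lists hold no library totals. Coordinates are hg38, counted from 1. Ratios of shares have 95% log-normal intervals for counting error. Python 3.11.15, pandas 2.3.3 and scipy 1.17.1 were used, and the overlap, distance and motif steps were tested on simulated data.

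Groups came from the sample titles. Nothing was tested across samples. Named regions were the 8 gained and 8 lost with the highest −log10 q, 10 of each at protein-coding start sites, and the 6 largest increases and decreases in width. Named genes were the 10 with the largest net gain and loss, the retinoid genes with a change, up to 4 of each other list by net change, and CYP26A1, ITGAM and CD86; further genes were named after their values were seen. Some genes and sequences are not reported here. Nothing is named from chromosome 8 (583 gained and 291 lost regions). The members, gene lists and rules were chosen with earlier results of these data known.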

Additional observations from a re-analysis of the deposited data

How the results depend on the processing

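No paired analysis was possible because each treatment has 1 pooled list with no values per replicate; for the same reason no replicate could be left out. Gained regions outnumbered lost regions under each setting tried, but only by a little with a reciprocal overlap of 50%. With a −log10 q of 5 or more for the peak that defines a region there were 5960 gained and 1360 lost regions, or 4.38 gained per lost. A −log10 q of 5 does not stand for the same number of fragments in each list, so ratios at this threshold are not like for like. Requiring it in both lists left 2730 lost regions and a ratio of 4.24. Merging peaks within 1 kb gave 7687 and 3227. A reciprocal overlap of 50% between single peaks gave 24647 and 23434, out of 66385 ATRA and 65172 DMSO peaks, so most of the excess of gained over lost was not seen there. With at least 20 fragments at the summit, an alternative chosen after seeing the data, 3520 regions were lost.

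The shares within reach of a start site for gained, lost and shared regions were 14.4%, 18.7% and 39.3% at 2.5 kb, 1.92%, 2.64% and 27.0% with canonical protein-coding start sites only, and 6.998%, 8.17% and 40.2% with −log10 q of at least 5. The median log2 width ratio was 0.10 with 1 peak of each list (66.9% wider), 0.11 with −log10 q of at least 5 (69.1% wider) and 0.13 with peaks within 1 kb merged.

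Net changes summed over the genes of a list scale with the window. At 10 kb they were 7 for the retinoid lists together, 20 for myeloid differentiation, 7 for myeloid transcription factors, 6 for stem and progenitor, 3 for corepressor and coactivator and 1 for housekeeping genes. At 100 kb they were 80 for the retinoid lists, 57 for transcription factors, 32 for corepressors and coactivators and 12 for housekeeping genes. With both lists limited to a −log10 q of 5 or more, the corepressor and coactivator value was 11. In the second ATRA contrast the same threshold gave 87.2% for gained and 78.1% for shared regions.

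Of the motif ratios, farther than 1 kb from start sites DR2 in gained regions was 1.45, the paired GAAA words 1.35 in gained and 0.683 in lost, TGACTCA 0.789 in gained and 1.13 in lost, and GAGGAAGT 1.19 in gained and 0.860 in lost. In windows of 500 bp the paired GAAA words in gained were 1.41, and GAGGAAGT was 1.28 in gained and 0.806 in lost, below 1 where 300 bp gave 1.05. The cause of these shifts was not tested. The lowest summits held 10 fragments in both lists, and what depth limits was not tested.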
